A study of Mus musculus with 8 samples.

Results

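The 33 genes on either side of Tet1 on mouse chromosome 10 were examined in RNA-seq data from mouse embryonic stem cells (mESCs). They were taken as every row of the deposited gene table with a start between 61.8 and 63.88 Mb on chromosome 10, leaving out Tet1, out of 19429 rows in all. Of the 33, 27 were protein-coding and 6 were not. The cells were derivatives of LF2, an mESC line, grown in medium with leukemia inhibitory factor and 10% FBS, and TET1 carried a C-terminal FLAG tag in all lines. WT cells, lines 2 and 5, had wild-type TET1. D2018A cells, lines 7 and 8, had an aspartate near the TET1 C-terminus replaced by alanine. Each line was sequenced in 2 replicates, which the methods call technical, so the labels describe 8 libraries, 4 WT and 4 D2018A.

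Each line was grown from a single cell after Cas9 cut near the end of Tet1 and a repair template was inserted, so line and clone cannot be told apart. The methods also describe a deletion distal to the cut site in WT cells and not in D2018A cells. They do not give its coordinates, and whether it holds any of the neighbours was not examined here. From cells with wild-type TET1 and 1 intact copy, the methods attribute the expression and methylation differences to D2018A instead. That comparison was not repeated here. The values used here are the authors' mean of normalised counts for each gene over all libraries of their fit. They have no spread between libraries, and WT and D2018A were not compared here. The lowest means fall on 12 separate steps, each taken as the value of 1 read in 1 library. This implies 12 libraries behind the mean, 4 more than the labels describe. Which ones these were is not given in the sources used here. The mean therefore describes the whole set of cells and neither genotype. Intervals in brackets below are approximate 95% Poisson intervals that treat the mean times 12 as a read count, and cover counting error only. They take reads to fall independently, but in 80.8% of 475 rows with 2 reads both were in 1 library. Reads at low means were thus clumped, and the intervals are likely too narrow there. Pluripotent stem cell genes were abundant, with 10 of 10 listed markers at means of 977 to 23079. Of 7 fibroblast markers 4 had a row, with Col1a1 at 115, Thy1 at 194, Col1a2 at 0.689 and Col3a1 at 0.093. The 5 primitive endoderm markers lay between 10.2 and 123 and the 4 neural progenitor markers between 3.53 and 199.

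TET1 oxidises 5-methylcytosine to 5-hydroxymethylcytosine, a step in the removal of DNA methylation, and is abundant in mESCs. OGT attaches a GlcNAc sugar to nuclear and cytoplasmic proteins and binds the TET1 C-terminus, the region that D2018A changes. Genes beside an edited locus are of interest because they share its chromosome, its clones and any rearrangement that editing leaves there. The genes beside Tet1 have unrelated roles, among them glycolysis, RNA unwinding, DNA repair, pancreatic development and muscle structure.

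The edited codon is at chr10:62812598-62812600 on GRCm38, in the coding part of Tet1, which lies on the minus strand at chr10:62804570-62908996. The repair templates of both groups are shown around this codon because all distances below are counted from it. Capitals mark the codon of the replaced aspartate in a protein of 2039 residues, and the templates differ by A23C, counted from 1 at the 5′ end of the stretch shown.
WT: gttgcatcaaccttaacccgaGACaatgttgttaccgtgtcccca
D2018A: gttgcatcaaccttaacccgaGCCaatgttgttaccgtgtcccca

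Tet1 itself had a mean of 23077, rank 20 of the table, or 1493 normalised counts per kb of exon. A level per kb is the mean divided by the length of all annotated exons of a gene, and fold differences between genes are given on that scale only. Ddx21, the neighbour with the highest level per kb, was 2.40-fold lower than Tet1.

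The 250 bases upstream of the RefSeq start are shown for 6 neighbours, taken from RefSeq on GRCm38.p6 and read 5′ to 3′ on the strand of the gene. TET1 acts on methylated CpG, so capitals mark each CpG. Neurog3 and Srgn encode regulators or products of specialised cells. Ddx21 had the highest level among the neighbours, Hk1 and Hkdc1 are adjacent relatives far apart in level, and Ctnna3 had the lowest level.
Neurog3 (chr10:62132840-62133089, plus strand, 18 CpG): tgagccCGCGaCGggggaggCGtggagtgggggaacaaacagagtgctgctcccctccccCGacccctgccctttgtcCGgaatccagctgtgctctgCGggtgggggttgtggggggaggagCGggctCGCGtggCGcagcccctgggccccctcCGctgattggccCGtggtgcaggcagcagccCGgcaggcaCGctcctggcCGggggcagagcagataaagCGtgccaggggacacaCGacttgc
Srgn (chr10:62527446-62527695, minus strand, 5 CpG): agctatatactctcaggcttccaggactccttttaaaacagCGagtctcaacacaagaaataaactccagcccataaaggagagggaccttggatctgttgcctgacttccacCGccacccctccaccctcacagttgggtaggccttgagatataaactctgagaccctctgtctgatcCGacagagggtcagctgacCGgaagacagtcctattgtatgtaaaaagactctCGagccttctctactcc
Ddx21 (chr10:62602299-62602548, minus strand, 25 CpG): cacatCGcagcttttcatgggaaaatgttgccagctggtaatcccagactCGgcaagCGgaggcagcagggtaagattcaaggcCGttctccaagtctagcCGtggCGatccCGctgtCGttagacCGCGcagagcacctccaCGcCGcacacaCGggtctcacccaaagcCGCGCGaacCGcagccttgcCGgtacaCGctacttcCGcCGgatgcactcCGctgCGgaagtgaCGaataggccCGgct
Hk1, upstream start (chr10:62379909-62380158, minus strand, 1 CpG): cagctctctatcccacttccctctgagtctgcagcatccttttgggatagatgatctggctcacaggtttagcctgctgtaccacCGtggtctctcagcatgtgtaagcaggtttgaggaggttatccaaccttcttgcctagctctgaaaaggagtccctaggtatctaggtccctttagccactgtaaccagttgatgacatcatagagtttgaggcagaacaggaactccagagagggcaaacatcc
Hk1, downstream start (chr10:62340422-62340671, minus strand, 14 CpG): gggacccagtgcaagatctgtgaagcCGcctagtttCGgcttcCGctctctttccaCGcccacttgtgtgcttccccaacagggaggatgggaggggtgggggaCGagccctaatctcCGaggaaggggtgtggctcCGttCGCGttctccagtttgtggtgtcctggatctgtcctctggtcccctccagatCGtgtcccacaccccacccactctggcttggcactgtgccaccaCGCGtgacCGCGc
Hkdc1 (chr10:62422458-62422707, minus strand, 6 CpG): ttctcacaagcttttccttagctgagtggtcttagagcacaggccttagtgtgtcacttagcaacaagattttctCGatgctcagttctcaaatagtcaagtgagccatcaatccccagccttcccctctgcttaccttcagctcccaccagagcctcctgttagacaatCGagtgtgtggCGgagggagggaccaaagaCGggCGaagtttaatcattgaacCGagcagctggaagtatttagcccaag
Ctnna3 (chr10:63429848-63430097, plus strand, 36 CpG): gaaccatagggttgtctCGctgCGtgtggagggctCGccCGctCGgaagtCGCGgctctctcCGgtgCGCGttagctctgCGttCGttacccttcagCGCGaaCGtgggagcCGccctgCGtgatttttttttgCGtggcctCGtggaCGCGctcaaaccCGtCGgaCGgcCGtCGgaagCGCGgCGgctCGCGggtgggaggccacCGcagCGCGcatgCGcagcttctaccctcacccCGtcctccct

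The neighbours spanned a wide range. Their means ran from 0.139 for Ctnna3 to 3216 for Ddx21. Of the 33, 3 had a mean of at least 1000, 10 lay between 100 and 1000, 11 between 10 and 100, 4 between 1 and 10, and 5 below 1. A mean of at least 10 was reached by 24 of 33 neighbours, or 72.7%, beside 66.3% of all rows and 69.5% of the 853 other rows of chromosome 10. A mean of at least 100 was reached by 39.4% of the neighbours, 44.6% of all rows and 47.1% of the other rows of the chromosome. The median mean was 47.8 for the neighbours and 63.2 for all rows, and the median level per kb was 16.0 against 17.1. Among protein-coding rows, 21 of 27 neighbours reached 10 (77.8%), beside 73.2% of all such rows. The share above 10 was thus slightly higher, and the share above 100 slightly lower, than in the table as a whole. The neighbours held 0.112% of all normalised counts and Tet1 alone 0.211%.

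**Figure D1:**
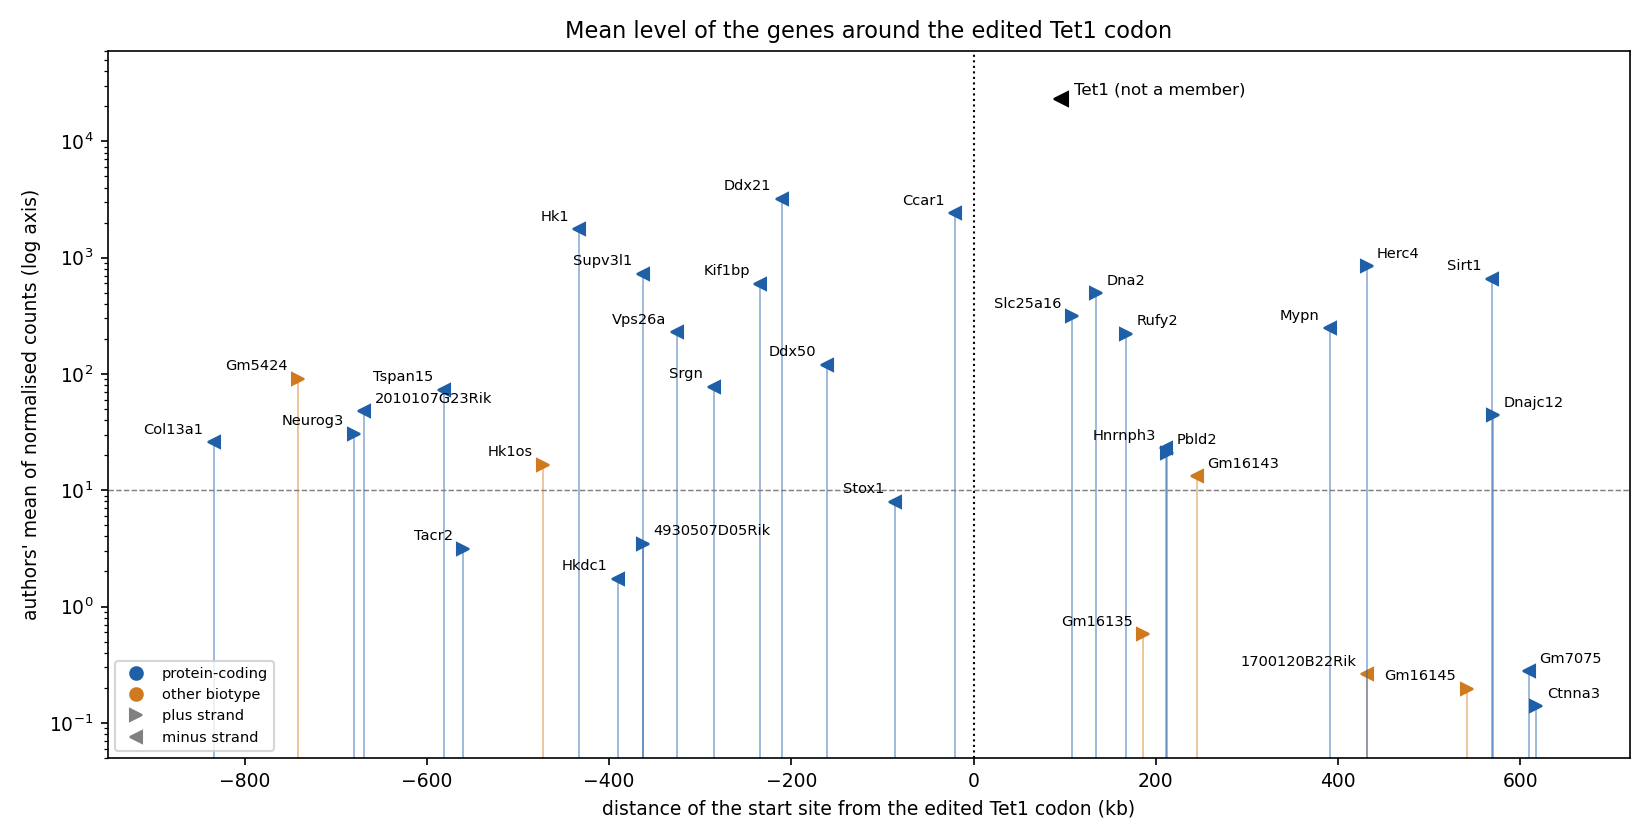
Mean of normalised counts (log axis) of the 33 neighbours against the distance of their start site from the edited Tet1 codon in kb. Each triangle is 1 gene, pointing along its strand, and the dashed line marks a mean of 10. Ccar1, 20.3 kb from the codon, stands at 2397, while Stox1, at 86.5 kb, stands at 7.95, and the last genes on the right, Gm7075 and Ctnna3, are below 1.

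The leftmost rows of the interval were Col13a1 and Gm5424. Col13a1 (chr10:61838236-61979108, minus strand) encodes a transmembrane collagen of muscle and other tissues. Its mean was 25.8 [23.02 to 28.9], or 5.61 per kb, which placed it at percentile 37.6 of the table by level per kb. Gm5424 (chr10:62071123-62072362) is a processed pseudogene with a mean of 90.8. Of its 50-base stretches, the read length used, 76.5% also occur in transcripts of Ass1, the urea cycle enzyme argininosuccinate synthase. Ass1 had a mean of 1181 and a level per kb 6.68-fold higher than Gm5424, and reads cannot be assigned to one or the other over the shared stretches, so the value of Gm5424 is uncertain.

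Neurog3 and 2010107G23Rik overlap in the GENCODE annotation. Neurog3 (chr10:62133090-62134763, plus strand) encodes the basic helix-loop-helix factor that starts the endocrine lineage of the pancreas. Its mean was 30.7 [27.6 to 34.0] and its level per kb 18.3, at percentile 51.0 of the table. The gene lies within the span of 2010107G23Rik (chr10:62107655-62143920, minus strand), annotated as Fam241b, which had a mean of 47.8 [44.0 to 51.9] and 16.0 per kb. Exons of the other gene cover 16.3% of the Neurog3 exons, and 13.3% of its 50-base stretches occur in Fam241b transcripts. Both RefSeq starts of Fam241b lie short of Neurog3, so the overlap rests on the annotation. Whether reads were counted by strand is not given in the sources used here, and those over the shared part may come from either gene.

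Neurog3 stood above its nearest relatives. Neurog1 and Neurog2, neurogenins of the nervous system, had means of 2.63 and 0.615, and the level per kb of Neurog3 was 11.7-fold and 66.4-fold higher. Of genes that act downstream of NEUROG3 in the pancreas, Neurod1 had a mean of 51.1, Insm1 of 8.90, Nkx2-2 of 0.433 and Pax4 of 0.197. Neurod1 was thus above 10, and Insm1, Nkx2-2 and Pax4 were below it.

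Tspan15 (chr10:62185396-62231251, minus strand) encodes a tetraspanin that binds the protease ADAM10. Its mean was 73.3 [68.5 to 78.3], spread over 8.18 kb of exon, which gave 8.96 per kb. Tacr2 (chr10:62252438-62265990, plus strand) encodes the receptor of neurokinin A, and its mean was 3.14 [2.22 to 4.32].

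The hexokinase genes Hk1 and Hkdc1 lie side by side and stood near opposite ends of the range. Hk1 (chr10:62268855-62379908, minus strand) encodes a hexokinase, which phosphorylates glucose at the start of glycolysis. It had a mean of 1756 [1732 to 1780] and 206 per kb. Hkdc1 (chr10:62383137-62422491, minus strand), a related hexokinase, had a mean of 1.74 [1.07 to 2.66] and 0.339 per kb, 607-fold lower than Hk1. Among related hexokinases, Hk2 had a mean of 1676 and Hk3 of 0.425. The level per kb of Hk2 was 1.36 times that of Hk1, but 0.741 times by the longest transcript, so their order depended on the length used. Both stood far above Hk3 and Hkdc1.

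The upstream start of Hk1 has 1 CpG in the 250 bases shown, the downstream start 14 and Hkdc1 6. A gene-level mean does not tell which Hk1 start was used. Hk1os (chr10:62340256-62363367, plus strand), an antisense RNA inside Hk1, had a mean of 16.5 [14.3 to 19.0] and 10.6 per kb. Exons of Hk1 cover 10.1% of its exons, and all of Hk1os lies within the span of Hk1. Without strand, reads anywhere in Hk1os may belong to either gene.

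Genes of RNA and protein handling followed. Supv3l1 (chr10:62429209-62449738, minus strand), which encodes an RNA helicase of mitochondria, had a mean of 725 [710 to 741] and 244 per kb. Its start lies 249 bases from that of 4930507D05Rik (chr10:62449489-62451322, plus strand), a coding gene of unassigned function whose mean was 3.47. RefSeq places the start of 4930507D05Rik 329 bases from the annotated one, so this distance rests on the annotation. The levels per kb of the pair differed 129-fold. Exons of Supv3l1 cover 13.6% of the exons of 4930507D05Rik, and how reads over that part were counted is not given. Vps26a (chr10:62455235-62486805, minus strand) encodes a subunit of retromer, which returns cargo from endosomes, and had a mean of 230 [221 to 238].

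Srgn (chr10:62493833-62527451, minus strand) encodes serglycin, the proteoglycan that packs the secretory granules of mast cells and other blood cells. Its mean was 77.8 [72.9 to 83.0] and its level per kb 35.4, at percentile 60.4 of the table. No 50-base stretch of Srgn transcripts occurs in another gene. Of 5 other granule and mast cell genes, Gzmb had a row, with a mean of 0.435, and the other 4 had no row. Ptprc, a marker of nearly all white blood cells, was at 0.640 and Hba-a1, of red cells, at 0.700, while Cd34 was at 27.0. Srgn was therefore present at an intermediate level while Gzmb, Ptprc and Hba-a1 were near 0.

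Kif1bp (chr10:62538626-62578457, minus strand) encodes a kinesin-binding protein needed in neurons. Its mean was 596 [582 to 610] and its level per kb 122, and 10.1% of its exons overlap the antisense gene 4933428P19Rik, which had no row. The adjacent genes Ddx21 and Ddx50 encode related nucleolar RNA helicases that act in ribosome production. Ddx21 (chr10:62580251-62602281, minus strand) had a mean of 3216 [3184 to 3248] and 621 per kb, at percentile 96.1 of the table.

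Ddx50 (chr10:62615895-62651218, minus strand) had a mean of 120 [114 to 126] and 11.8 per kb, 52.5-fold lower than Ddx21. With the length of the longest transcript in place of all exons the difference was 23.5-fold. It has 10.1 kb of annotated exon against 5.18 kb for Ddx21, and 4.36% of its 50-base stretches occur in other genes. The list of helicases, 4 neighbours and the relatives Ddx10 and Ddx18, had 6 of 6 rows at a mean of at least 10, from 120 to 3216. Ddx10 was at 477 and Ddx18 at 445.

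**Figure D2:**
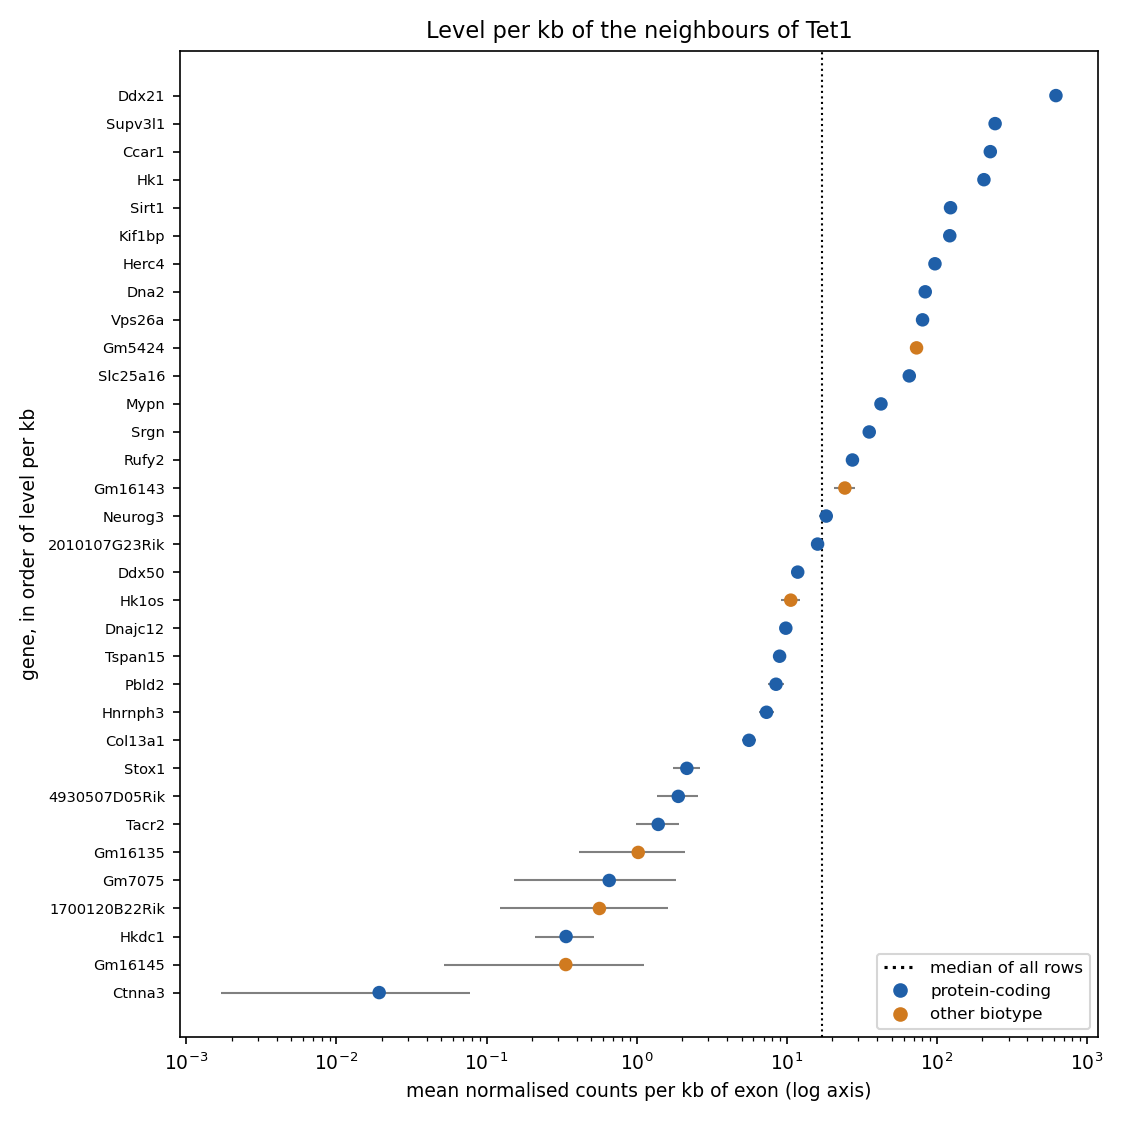
Mean of normalised counts per kb of exon (log axis) of each neighbour, in order of level, with bars for the approximate 95% Poisson interval of counting error and a dotted line at the median of all rows, 17.1. Ddx21 leads at 621, Neurog3 lies next to the median at 18.3, and Ctnna3 is lowest at 0.0193.

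The genes on both sides of Tet1 differed strongly in level. Stox1 (chr10:62659043-62726128, minus strand), which encodes a winged-helix protein, had a mean of 7.95 [6.43 to 9.71] and 2.16 per kb. Ccar1 (chr10:62743928-62792286, minus strand) is the next gene downstream of Tet1, with its start 20.3 kb from the edited codon. It encodes a coactivator of transcription and regulator of cell division and apoptosis, and had a mean of 2397 [2369 to 2425] and 227 per kb.

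Upstream of Tet1 the nearest row was Slc25a16 (chr10:62920633-62946498, plus strand), a mitochondrial carrier, with a mean of 314 [304 to 324] and 65.5 per kb. Dna2 (chr10:62947026-62974185, plus strand) encodes a nuclease and helicase of DNA replication and repair, and had a mean of 492 [479 to 504] and 83.7 per kb. Rufy2 (chr10:62980223-63017210, plus strand), which encodes an endosomal protein, had a mean of 222 [214 to 231] and 27.4 per kb. These 3 genes all lay above the table's median level per kb, as did Ccar1, whereas Stox1 did not.

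Hnrnph3 and Pbld2 start 98 bases apart on opposite strands in the annotation and had like levels. RefSeq places their starts 368 and 197 bases from the annotated ones, so the closeness rests on the annotation. Hnrnph3 (chr10:63014664-63024217, minus strand), of the hnRNP H family of RNA-binding splicing regulators, had a mean of 23.1 [20.4 to 25.97] and 7.33 per kb. Pbld2 (chr10:63024315-63058813, plus strand) encodes a protein with a phenazine biosynthesis-like domain and had a mean of 21.03 [18.5 to 23.8] and 8.48 per kb, so the level per kb of Pbld2 was 1.16 times that of Hnrnph3, or 0.911 times by the longest transcript, and their counting intervals on the mean overlap. Of the 50-base stretches of Pbld2, 11.9% occur in its neighbour Pbld1, which was not analysed here.

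Relatives of Hnrnph3, looked up after its low value was seen, were higher. Hnrnph1 had a mean of 615 and Hnrnpf of 368, and their levels per kb were 14.4-fold and 16.5-fold higher than that of Hnrnph3. Shared sequence with other genes made up 2.04% of the Hnrnph3 stretches, all of it with Rufy2, whose end overlaps it. Gm16143 (chr10:63055603-63057467, minus strand), an antisense RNA at Pbld2, had a mean of 13.1 [11.1 to 15.3].

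Mypn (chr10:63115795-63203952, minus strand) encodes myopalladin, a protein of the muscle sarcomere. Its mean was 247 [238 to 256] and its level per kb 42.4, at percentile 63.2, and no 50-base stretch of its transcripts occurs in another gene. Herc4 (chr10:63243810-63317878, plus strand) encodes a ubiquitin ligase and had a mean of 848 [831 to 864] and 97.1 per kb. Its start lies 343 bases from that of the noncoding 1700120B22Rik, which had a mean of 0.262. Exons of Herc4 cover 57.5% of the exons of 1700120B22Rik. How reads over that part were counted is not given in the sources used here, so the value of 1700120B22Rik is uncertain. The levels per kb of this pair differed 172-fold, or 383-fold by the longest transcript.

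Sirt1 (chr10:63319005-63381704, minus strand) encodes an NAD-dependent deacetylase of histones and other proteins. Its mean was 657 [643 to 672] and its level per kb 123, at percentile 80.3. All 7 sirtuins had means above 10, from 86.0 to 1489, and Sirt6, the highest, was 4.34-fold above Sirt1 per kb. Dnajc12 (chr10:63382443-63410576, plus strand), a co-chaperone of the enzymes that hydroxylate aromatic amino acids, had a mean of 44.1 [40.4 to 48.0] and 9.85 per kb. It starts 739 bases from the most upstream annotated Sirt1 start, and the pair differed 12.5-fold per kb. RefSeq places the Sirt1 start 42.7 kb away from that one, so the closeness rests on the annotation.

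The lowest mean and the lowest level per kb among the neighbours were those of Ctnna3, the rightmost row. Ctnna3 (chr10:63430098-65003667, plus strand), the alpha catenin of heart and testis, spans 1.57 Mb and starts within the interval. Its mean was 0.139, which corresponds to 2 reads, both in 1 library. Ctnna1, the common alpha catenin of cell junctions, had a mean of 2197, and Ctnna2, of neurons, 0.490. The level of Ctnna3 was at percentile 0.662 of the table per kb.

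Gm7075 (chr10:63421365-63421789, minus strand), a predicted coding gene, had a mean of 0.279, which corresponds to 3 reads, all in 1 library. Among the 6 neighbours without a protein, means ran from 0.197 to 90.8, with Gm5424, Hk1os and Gm16143 above 10. Gm16145 and 1700120B22Rik correspond to 3 and 4 reads, again all in 1 library each. The mean of Gm16135, 0.582, was not resolved into whole reads within the number of reads searched, and it may hold more reads than that. At this depth such values do not tell a gene at a low level from one that is absent.

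Genes with means above 100 and below 10 lay on both sides of the codon, as the plot of means along the chromosome shows. Of the 22 neighbours whose start site lies within 500 kb of the edited codon, 17 had a mean of at least 10. Their median mean was 171, against 47.8 for all 33. On the scale of level per kb, 8 of the 10 neighbours with the highest means were again among the top 10.

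Of the 33 neighbours 27 were matched to a RefSeq start. Neighbours with a mean of at least 100 had a median of 19 CpG in the 250 upstream bases (n = 13), those at 10 to 100 had 17 (n = 8) and those below 10 had 11.5 (n = 6). The corresponding medians over all rows were 17, 13 and 5. Individual genes departed from this order in both directions. Ctnna3, with 2 reads, had 36 CpG at its most upstream start, and 7 and 1 at its other RefSeq starts. Srgn, at a mean of 77.8, had 5 at the start shown and 3 at its other start. Mypn also had 5, and Sirt1 had 39. Over the 27 genes, which share the same libraries, Spearman's rho between CpG and level per kb was 0.09, beside 0.405 over 14288 rows of the table. With 27 genes a rho is only loosely fixed, and whether the values differ was not tested. The CpG count also depends on the start taken, with 1 at the upstream start of Hk1 and 14 at its downstream start.

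**Figure D3:**
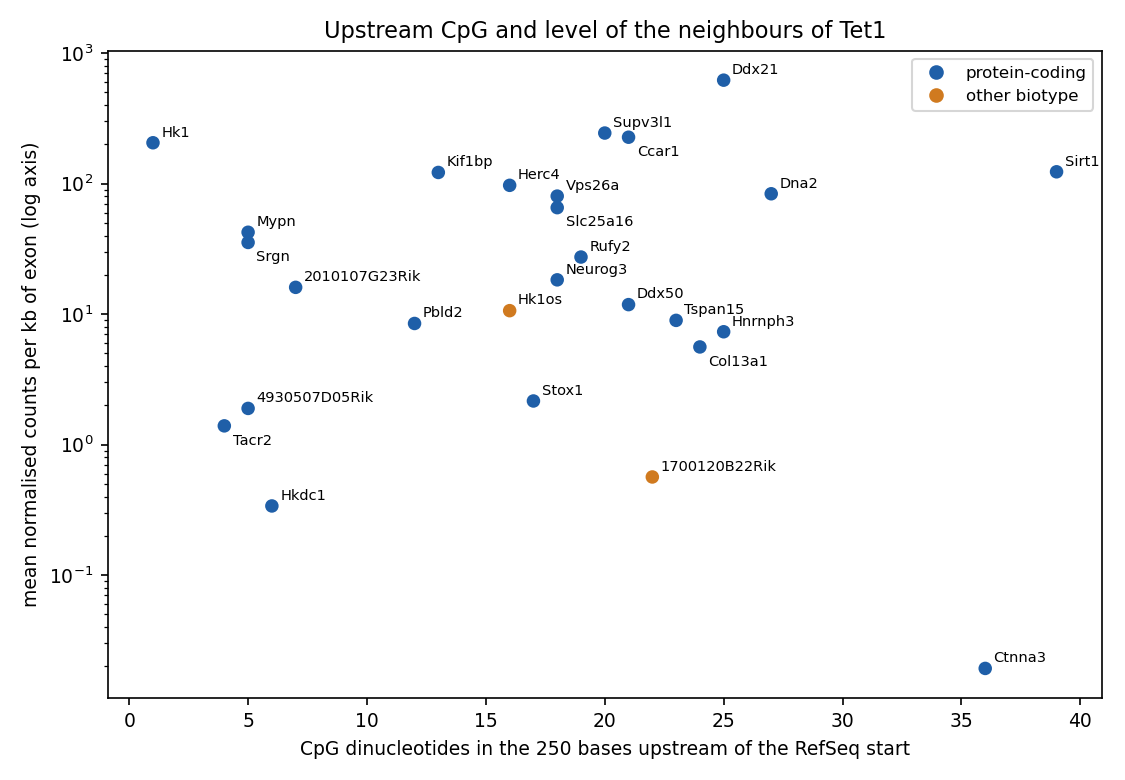
CpG dinucleotides in the 250 bases upstream of the RefSeq start nearest the 5′ end of the row against mean normalised counts per kb of exon (log axis), for 27 neighbours. Sirt1 with 39 CpG and Ctnna3 with 36 lie at the right, far apart in level, and Hk1 lies at the left with 1 CpG at its upstream start.

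The motif TATAAA, searched on both strands of the 250 bases, was in 4 of 27 neighbours (14.8%), namely Col13a1, Srgn, Kif1bp and Mypn, beside 8.02% of 14299 upstream sequences of the table. Their means ranged from 25.8 to 596.

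Few neighbours shared much of their sequence with other genes. Gm5424 and 1700120B22Rik shared most of their stretches with another gene, Neurog3, Pbld2 and 4930507D05Rik shared 11.3% to 13.3%, and Srgn, Ddx21, Hkdc1, Mypn, Tacr2, Vps26a, Stox1, Col13a1 and Gm16143 shared none.

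**Figure D4:**
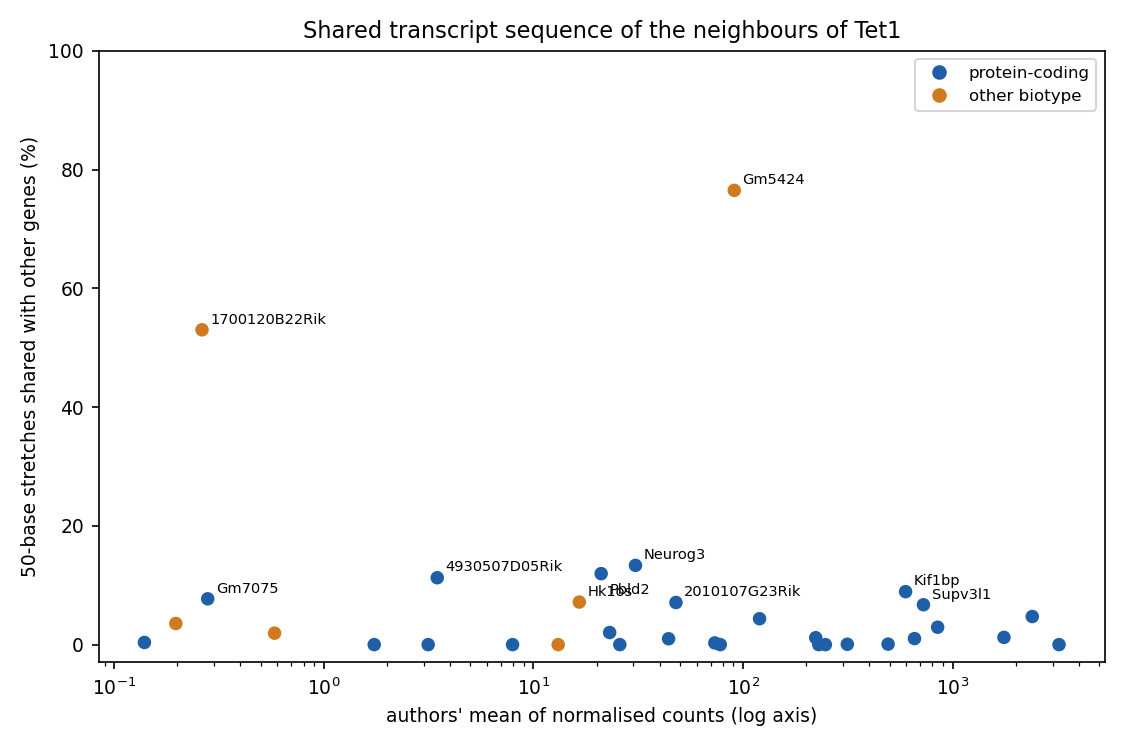
Percentage of each neighbour's 50-base transcript stretches that also occur, on either strand, in transcripts of another gene, against the mean of normalised counts (log axis). Gm5424 at 76.5% and 1700120B22Rik at 53.0% stand apart from the other 31 genes, which are at 13.3% or lower.

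The annotation lists 58 genes in the interval, of which 34 had a row, Tet1 included. Of the 24 others 2 were protein-coding, Pbld1 and Atoh7, and these were not analysed here.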

How the data were processed

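RNA was depleted of ribosomal RNA and sequenced as single-end reads of 50 bases. The authors aligned and counted reads per gene with STAR 2.5.3a on GRCm38.p6 and used DESeq2 1.20.0. The deposited table holds 1 row per gene with a mean signal, which the authors made by dividing gene counts by a size factor per library and averaging over libraries. The number of libraries, 12, was inferred from steps of single reads among the lowest means. Size factors recovered from the steps of single reads ran from 0.726 to 1.47. Total counts per library are not known. The table's other columns hold the authors' comparison of the genotypes (log2 fold change, its standard error, test statistic, p-value and adjusted p-value) and were not used here.

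Exon lengths, overlaps and shared stretches were computed from GENCODE on GRCm38, and upstream sequences were read from RefSeq, with Python 3.11.15, pandas 2.3.3, numpy 2.4.6 and scipy 1.17.1. A step was a value that at least 30 rows shared and that was not a sum of lower steps. The search was also run on simulated data in which the number of libraries was set beforehand. That run therefore does not support the number of libraries inferred here. No filter and no test were applied, and samples were grouped by their labels. Every neighbour was described and each protein-coding one named, with others named where the mean reached 10. The neighbours and gene lists were chosen with earlier results of these data known. Some genes of these lists are not reported here.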

Additional observations from a re-analysis of the deposited data

Results flagged for a closer look

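The deposited mean appears to carry a signal beyond the libraries that the labels describe. Single reads fall on 12 steps, and 8 libraries are described, so the steps imply 4 libraries more than described. This count is inferred and depended on the step rule, as given below. The methods state in general that more lines of each genotype were assayed than the labels name, without tying them to the RNA-seq. The groups of the further libraries are thus not given, and their part in the levels was not tested.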

How the results depend on the processing

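The count of neighbours with a mean of at least 10 was 24, and it was 25 at a minimum of 5, 22 at a minimum of 20, 21 among protein-coding rows and 16 of 21 among rows whose lowest coordinate lies within 500 kb of that of Tet1. The median mean, 47.8 over all 33, was 77.8 for protein-coding rows, 84.3 for means of at least 1 and 120 within the same 500 kb. All lay within its 95% binomial interval, which treats the 33 genes as a random sample. These alternatives are parts of the same 33 rows, so lying within it does not show that the median is stable. The median level per kb was 24.4 with the longest transcript in place of all exons. After seeing the data, start sites within 500 kb of the edited codon were taken instead (17 of 22, median 171). Folds by the longest transcript are given beside those that moved by over 1.5 times or turned. Also after seeing the data, the number of libraries was counted again as 12 with steps of at least 20 rows and as 10 with at least 40, and the median CpG of neighbours at 100 or more was 20 with the RefSeq start richest in CpG. No library could be left out and no paired analysis was possible because the values are means over libraries. Means below 1 rest on few reads.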

Other observations

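Among rows of the whole table, 475 had a mean that corresponds to 2 reads, and in 384 of them (80.8%) both reads came from 1 library, as they did for Ctnna3. Of the genes that act after ATOH7 in the retina, Pou4f2 had a mean of 131, Pou4f1 of 35.3 and Isl1 of 4.89.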
